A study of Mus musculus with 6 samples.

Results

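The 10 genes described here encode chaperones and folding enzymes of the endoplasmic reticulum (ER), together with Xbp1, a transcription factor that drives their expression. They were Hspa5, Hsp90b1, Manf, Pdia4, Pdia6, Creld2, Sdf2l1, Dnajc3, Calr and Xbp1, chosen by symbol from the 55401 Ensembl genes of the expression files. RNA was sequenced from the myocardium of male WT mice after injection of STZ (3 libraries) or PBS (3 libraries), and the labels of all 6 libraries give the time 8-week without saying from which event. STZ is streptozotocin, a toxin of pancreatic beta cells that was used here to make the mice diabetic, and PBS is the saline vehicle. Neither the strain, the age nor the blood glucose of the mice is given in the sources used here, and no label says whether the libraries of a group came from separate animals.

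Proteins destined for secretion or for membranes fold in the lumen of the ER, where HSP70-type and HSP90-type chaperones, lectin chaperones and protein disulfide isomerases bind them. When unfolded proteins accumulate, the sensors IRE1, ATF6 and PERK start the unfolded protein response: IRE1 splices the Xbp1 mRNA, and spliced XBP1 and cleaved ATF6 raise transcription of the chaperone genes through ER stress response elements in their promoters. In the heart this response is known for its part in protein synthesis during growth and in the reaction to ischaemia.

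Values are FPKM as deposited, fragments scaled by the length of the transcript and by the number mapped in the library, so levels of different genes can be compared per length. The files of 5 libraries list all 55401 genes, and the file of PBS replicate 3 lists 7711 of them, 9 of the 10 chaperone genes included and Manf not. The fit therefore used STZ replicates 1 to 3 and PBS replicates 1 and 2 over the 11556 genes that reached 1 FPKM in 2 or more of these libraries, and all 10 chaperone genes passed that filter. The FPKM of a complete library summed to 531384 to 581718 in STZ and to 586336 and 589719 in PBS, of which mitochondrial genes took 42.0% to 45.5% in STZ and 47.1% and 47.3% in PBS. The sources used here do not give the number of fragments per library, so no counting error is attached to a value. The 4811 tested genes listed for PBS replicate 3 had a median log2 difference of -0.04 from the mean of PBS replicates 1 and 2. The values of PBS replicate 3 are given beside those of the complete libraries.

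The promoters of these genes are shown because the transcription factors of the unfolded protein response act through them. The ER stress response element (ERSE) has the letters CCAAT and, after 9 bases of any kind, CCACG, and the related ERSE-II has ATTGG and, after 1 base of any kind, CCACG. Both strands of the 250 bases before each RefSeq start site (GRCm38.p6) were searched, and 9 of the 10 genes, all but Manf, have an entry in the table. An exact ERSE was found in 6 of the 9, namely Hspa5, Hsp90b1, Pdia6, Creld2, Dnajc3 and Calr, and Pdia4 had one with 1 mismatch. Of all 32851 promoters in the table, 37 (0.113%) held an exact ERSE and 432 (1.32%) one with at most 1 mismatch. No exact ERSE-II was found in the 9, and Hspa5, Creld2 and Sdf2l1 had one with 1 mismatch, as did 340 (1.03%) of all promoters with at most 1 mismatch. The upstream stretch of Hspa5 (chr2:34771880-34772089, plus strand) is followed by windows around the match in the 7 other genes with at most 1 mismatch, in the direction of the motif, with the letters that match the motif in capitals. The best ERSE match in the Xbp1 promoter had 3 mismatches and is not shown.
Hspa5: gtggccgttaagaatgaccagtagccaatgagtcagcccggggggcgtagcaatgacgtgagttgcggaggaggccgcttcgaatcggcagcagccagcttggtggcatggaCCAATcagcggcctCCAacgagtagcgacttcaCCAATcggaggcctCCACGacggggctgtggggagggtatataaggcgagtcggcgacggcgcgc
Hsp90b1: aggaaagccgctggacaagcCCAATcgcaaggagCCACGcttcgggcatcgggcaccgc
Pdia6: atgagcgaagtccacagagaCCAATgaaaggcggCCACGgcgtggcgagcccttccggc
Creld2: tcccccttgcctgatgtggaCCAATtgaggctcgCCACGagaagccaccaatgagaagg
Dnajc3: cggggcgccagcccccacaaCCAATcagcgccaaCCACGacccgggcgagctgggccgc
Calr: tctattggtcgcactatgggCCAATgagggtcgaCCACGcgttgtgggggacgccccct
Pdia4: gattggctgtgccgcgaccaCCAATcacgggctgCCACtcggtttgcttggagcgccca
Sdf2l1: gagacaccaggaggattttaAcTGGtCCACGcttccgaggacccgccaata

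The window of Hsp90b1 lies at chr10:86705618-86705676 on the minus strand, that of Pdia6 at chr12:17266471-17266529 on the plus strand and that of Creld2 at chr15:88819500-88819558 on the minus strand. Those of Dnajc3, Calr and Pdia4 lie at chr14:118937807-118937865 on the plus strand, chr8:84847055-84847113 on the plus strand and chr6:47813582-47813640 on the plus strand. The Sdf2l1 window, at chr16:17132502-17132552 on the plus strand, shows ERSE-II with 1 mismatch, and the others show ERSE. The exact match of Hspa5 ends 47 bases before its start site, and a second copy with 2 mismatches ends 80 bases before it. That RefSeq start site (position 34772090) lies 120 bases after the gene start in GENCODE M21, so both copies fall inside the gene as GENCODE draws it. The ERSE-II match of Hspa5 shares its ATTGG letters with that second copy, and the ERSE-II match of Creld2 shares them with its ERSE, read on opposite strands.

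In the STZ libraries 3 of the 10 chaperone genes were lower than in PBS and none was higher. Transcripts of Hspa5, the ER's main HSP70 chaperone (BiP), of Manf, a small secreted ER stress factor, and of the disulfide isomerase Pdia4 fell to 0.406 to 0.531 times their PBS means. The remaining 7 genes had log2 fold changes from -1.18 to -0.18, each with an adjusted p above the threshold of 0.05. At an unadjusted p under 0.05, limma gave 5 of the 10 as lower (Creld2 and Sdf2l1 in addition) and none as higher, beside 10.2% lower and 16.4% higher of all genes tested. The 10 fold changes had a median of -0.59 on the log2 scale and all were negative, beside a median of 0.06 and 43.0% negative among all genes tested. Of all 11556 genes, 251 (2.17%) were lower and 421 (3.64%) were higher in STZ by limma with Benjamini-Hochberg adjustment, 5.82% in either direction. That split depends on scaling: 62.6% of the calls were higher in STZ as deposited, 48.5% after median centring, 50.2% once quantile-normalized and 73.8% once rescaled to TPM, while the 10 chaperone fold changes stayed negative under all of these. In whole tissue, fewer cells of a type and less RNA per cell cannot be told apart.

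**Figure D1:**
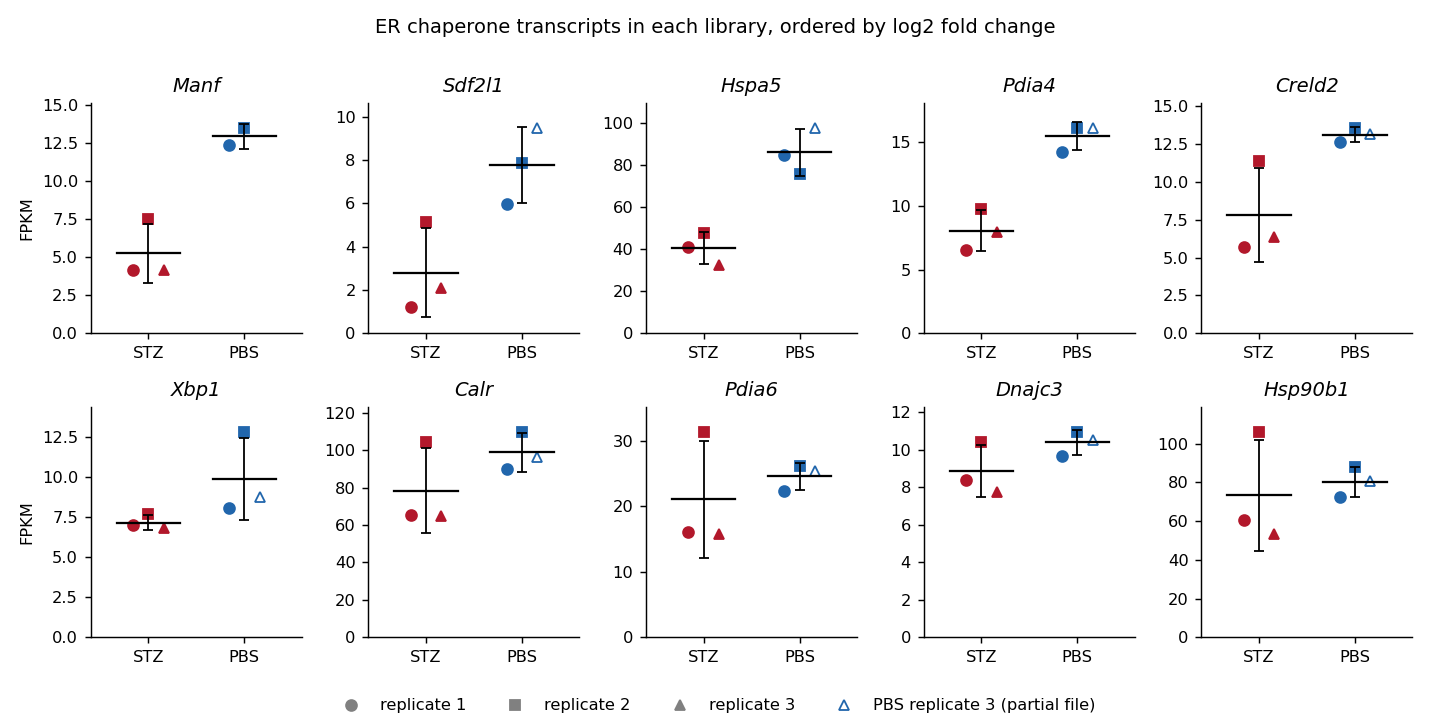
FPKM of each of the 10 chaperone genes (vertical axes, from 0) in the STZ libraries (red, left) and the PBS libraries (blue, right), ordered by log2 fold change; horizontal lines are means over the listed libraries, bars are 1 SD, and the open triangle is PBS replicate 3, whose file is partial. For Hspa5 the STZ libraries lie between 32.7 and 47.8 FPKM and the PBS libraries between 75.7 and 98.03, while for Hsp90b1 STZ replicate 2 lies above every PBS library.

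The plot of FPKM by library shows every value behind these comparisons. Hspa5 (ENSMUSG00000026864, chr2:34771970-34777547, plus strand) binds nascent chains and holds the 3 stress sensors inactive. It had 41.3, 47.8 and 32.7 FPKM in STZ replicates 1 to 3, against 85.0, 75.7 and 98.03 FPKM in PBS replicates 1 to 3. Every STZ library was below every PBS library. Its mean was 40.6 ± 7.55 FPKM in STZ (SD, n = 3) and 80.4 ± 6.57 FPKM in the complete PBS libraries (SD, n = 2), a log2 fold change of -0.98 with a standard error of 0.18 and a limma adjusted p of 0.0369. With all 6 libraries and the 4824 genes that every file lists and that pass the same filter, the log2 fold change was -1.08 and the limma adjusted p 0.00434.

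Manf (ENSMUSG00000032575, chr9:106838312-106891979, minus strand) had 4.13, 7.47 and 4.15 FPKM in the STZ libraries, against 12.4 and 13.5 FPKM in PBS replicates 1 and 2. The groups did not overlap, and STZ replicate 2 stood above the other STZ libraries. Its log2 fold change was -1.20 with a standard error of 0.24 and a limma adjusted p of 0.0447. Exons of genes on the opposite strand, Dcaf1 and 4930524O07Rik, cover 4.14% and 4.71% of its exon length, and the strand setting of the authors' counting is not given in the sources used here.

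Pdia4 (ENSMUSG00000025823, chr6:47796141-47813430, minus strand), an oxidoreductase that forms and rearranges disulfide bonds, had 6.54, 9.75 and 7.92 FPKM in STZ, against 14.3, 16.2 and 16.1 FPKM in PBS. All PBS libraries were above all STZ libraries. Its log2 fold change over the 5 complete libraries was -0.85 with a standard error of 0.18 and a limma adjusted p of 0.0476, and over 6 libraries it was -0.88 with an adjusted p of 0.00618.

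These 3 calls lay close to the threshold and depended on single libraries of the 5-library fit. Hspa5, Manf and Pdia4 were all past it without STZ replicate 2, only Hspa5 was past it without STZ replicate 3, and none was past it without STZ replicate 1, PBS replicate 1 or PBS replicate 2, where limma adjusted p ranged from 0.0735 to 0.256. Leaving out 1 PBS library leaves that group with a single library, whose spread is then taken from the STZ group. In the 6-library fit Hspa5 and Pdia4 were past the threshold without any 1 of those 5 libraries, with limma adjusted p from 0.0040 to 0.0304, and Hspa5 missed it (0.0507) without replicate 1 of both groups. Over 5 libraries none of the 3 was past it after rescaling to TPM (limma adjusted p from 0.0579 to 0.0725) or with no filter on low values (0.104 to 0.134).

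Creld2 and Sdf2l1 had STZ libraries below all PBS libraries but missed the threshold over 5 libraries. Creld2 (ENSMUSG00000023272, chr15:88819646-88826683, plus strand), a secreted disulfide isomerase-like protein, had 5.71, 11.4 and 6.37 FPKM in STZ, against 12.6, 13.6 and 13.1 FPKM in PBS. STZ replicate 2 lay just below the lowest PBS library and the other STZ libraries well below it. Its log2 fold change was -0.73 (limma adjusted p = 0.152) over 5 libraries, and -0.73 (limma adjusted p = 0.0468) over 6. Among the genes of all 6 files the call was lost without STZ replicate 1, STZ replicate 3, PBS replicate 1 or PBS replicate 2 (0.106 to 0.126), and it was also missed where PBS replicate 3 was added to the fit of all 11556 genes (0.0787).

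Sdf2l1 (ENSMUSG00000022769, chr16:17130138-17132383, minus strand), a subunit of a BiP cofactor complex with Dnajb11, had 1.19, 5.12 and 2.10 FPKM in STZ, against 5.96, 7.84 and 9.49 FPKM in PBS. It had the lowest mean of the 10 genes and the widest spread within STZ, a 4.30-fold range. The log2 fold change was -1.18 with a standard error of 0.41 (limma adjusted p = 0.136) over 5 libraries, and -1.32 (limma adjusted p = 0.0325) over 6. With all 6 libraries, 4 of the 9 listed chaperone genes were lower and none was higher, beside 7.9% lower and 12.6% higher of the 4824 genes in that fit. Sdf2l1 missed the threshold there without STZ replicate 1, STZ replicate 3, PBS replicate 1 or PBS replicate 2 (limma adjusted p from 0.0626 to 0.0909), which left Hspa5 and Pdia4 as the 2 calls. With PBS replicate 3 added to the fit of all 11556 genes, the calls were Hspa5, Manf and Pdia4, and Sdf2l1 had a limma adjusted p of 0.0591.

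For the abundant chaperones Hsp90b1, Calr and Pdia6 and for the cochaperone Dnajc3 the groups overlapped. Hsp90b1 (ENSMUSG00000020048, chr10:86690209-86705509, minus strand), the ER's HSP90, had 60.4, 106.2 and 53.5 FPKM in STZ, against 72.4, 87.8 and 80.4 FPKM in PBS. STZ replicate 2 was the highest of the 6 libraries and the other STZ libraries were the lowest. The log2 fold change was -0.18, with a 95% interval from -0.90 to 0.54 (limma adjusted p = 0.732). Its exons share 10.3% of their length with 1810014B01Rik on the opposite strand.

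Calr (ENSMUSG00000003814, chr8:84841850-84846934, minus strand) encodes calreticulin, a lectin chaperone that also stores calcium. It had 65.2, 104.6 and 65.1 FPKM in STZ, against 90.0, 110.0 and 96.5 FPKM in PBS. STZ replicate 2 fell within the PBS range and the other STZ libraries below it, with a log2 fold change of -0.38 and a 95% interval from -0.96 to 0.20 (limma adjusted p = 0.359).

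Pdia6 (ENSMUSG00000020571, chr12:17266545-17284770, plus strand), a disulfide isomerase that works with BiP, had 16.1, 31.4 and 15.8 FPKM in STZ, against 22.3, 26.2 and 25.3 FPKM in PBS. The order of the libraries was the same as for Hsp90b1 in STZ, with replicate 2 above every PBS library. The log2 fold change was -0.26, with a 95% interval from -0.99 to 0.48 (limma adjusted p = 0.628).

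Dnajc3 (ENSMUSG00000022136, chr14:118937976-118981697, plus strand) encodes p58IPK, a J-domain partner of BiP. It had 8.38, 10.4 and 7.76 FPKM in STZ, against 9.68, 10.96 and 10.5 FPKM in PBS. Its fold change was the smallest after that of Hsp90b1, with a log2 fold change of -0.21 and a 95% interval from -0.58 to 0.17 (limma adjusted p = 0.435).

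Xbp1 (ENSMUSG00000020484, chr11:5520659-5525893, plus strand), the target of IRE1 splicing, had 7.02, 7.67 and 6.79 FPKM in STZ, against 8.08, 12.8 and 8.73 FPKM in PBS. The groups did not overlap, but the gap between the highest STZ and the lowest PBS library was small beside the spread within PBS. The log2 fold change was -0.46 with a 95% interval from -0.93 to 0.01 (limma adjusted p = 0.197). The gene-level FPKM does not separate spliced from unspliced Xbp1 mRNA.

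Counted over the 5 complete libraries, 6 of the 10 genes had all STZ values below all PBS values and none had them above. Among all genes tested, 18.8% had groups that did not overlap with STZ lower, and 28.7% with STZ higher.

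**Figure D2:**
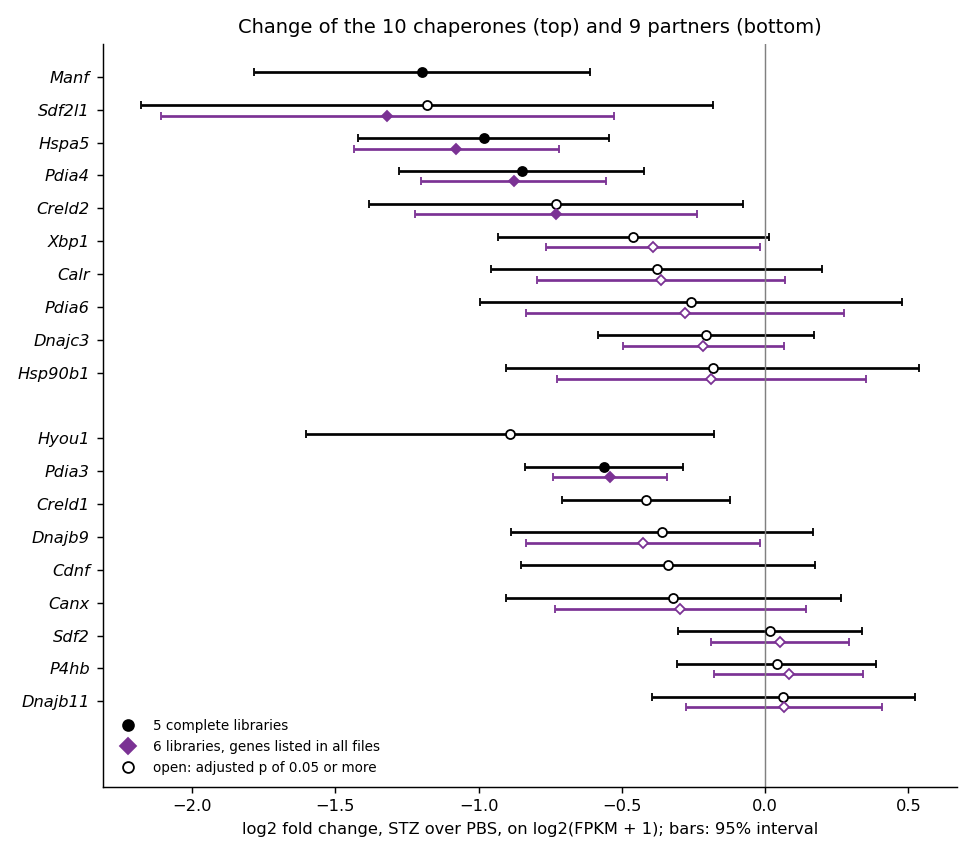
Log2 fold change of STZ over PBS on log2(FPKM + 1), with 95% intervals, for the 10 chaperone genes (top) and 9 paralogs and cofactors (bottom); circles use the 5 complete libraries, diamonds all 6 libraries, and filled symbols have a limma adjusted p under 0.05. All 10 chaperones lie left of 0, with Hspa5, Manf and Pdia4 filled in the 5-library fit, and P4hb, Sdf2 and Dnajb11 lie near 0.

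Within the STZ group, replicate 2 had the highest level of all 10 genes. It was the highest STZ library for 40.02% of all genes tested, replicate 1 for 24.2% and replicate 3 for 35.2%. Its chaperone levels were a median of 1.71 times the mean of STZ replicates 1 and 3, from 1.11 times for Xbp1 to 3.11 times for Sdf2l1, beside a median of 1.05 times over all genes tested. The FPKM of the 10 genes summed to 215.9, 341.8 and 202.2 in the STZ libraries, against 332.6 and 374.5 in PBS replicates 1 and 2. The sum of STZ replicate 2 was within the PBS range and the others were below it.

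Some markers of other cell types were also highest in STZ replicate 2. The 5 erythroid markers summed to 329, 959 and 361 FPKM in STZ, against 310 and 283 FPKM in PBS, and each of the 5 was highest in STZ replicate 2 within its group. Macrophage markers, of which 7 of 8 were highest in STZ replicate 2 within the group, summed to 139, 200 and 171 FPKM in STZ, against 208 and 181 FPKM in PBS. Of 8 endothelial markers 3 were highest there, near the 40.02% of all genes tested. The endothelial sums were 142, 187 and 174 FPKM in STZ, against 143 and 140 FPKM in PBS. Other lists differed: 3 of 3 tested neutrophil markers were highest there, but only 3 of 10 fibroblast markers. The same held for 1 of 7 tested smooth muscle and pericyte markers, 0 of 8 cardiomyocyte markers and 0 of 6 tested atrial markers. The part of these features in the chaperone levels of that library was not tested. Leaving out the highest STZ library lowers the STZ means and their spread by construction, so the counts without it are a description. Without STZ replicate 2, limma called 5 of the 10 genes lower (Hspa5, Manf, Pdia4, Creld2 and Sdf2l1), beside 1.46% of all genes tested. In the fit of 6 libraries and of the genes that all files list, it called 7 of 9 lower without that library, beside 8.25% of 4777 genes, with Hsp90b1, Pdia6 and Calr among them.

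**Figure D3:**
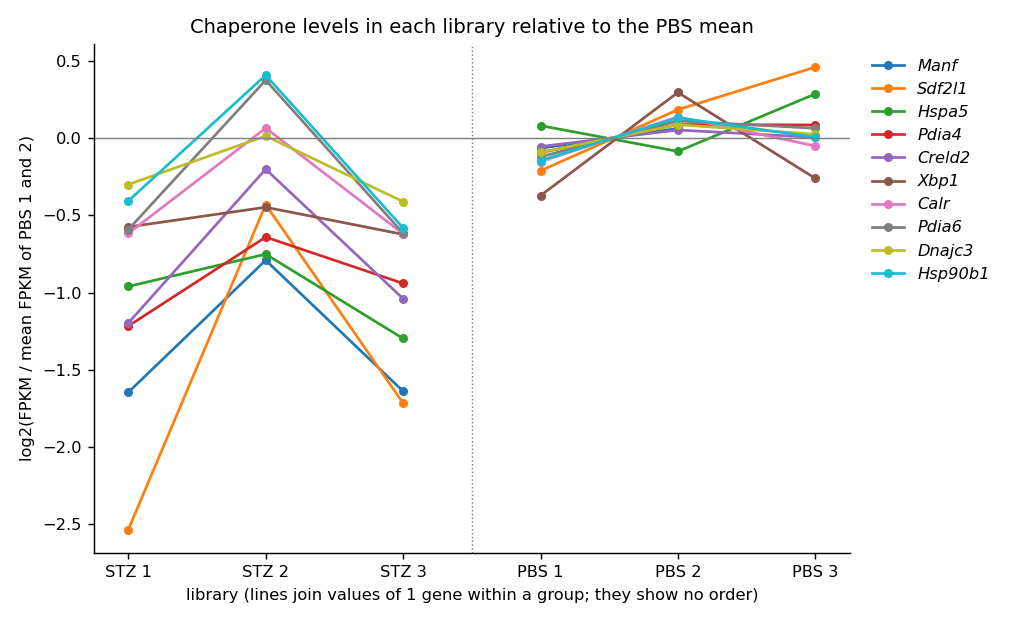
Level of each chaperone gene in each library as log2 of its FPKM over the mean of PBS replicates 1 and 2 (vertical axis), with the STZ libraries left and the PBS libraries right of the dotted line; lines join the values of 1 gene within a group and show no order. STZ replicate 2 is the top of every STZ line, and Hsp90b1, Pdia6, Calr and Dnajc3 lie above 0 there, the last of these only slightly. Hspa5, Manf, Pdia4, Creld2, Sdf2l1 and Xbp1 stay below 0 in all 3 STZ libraries.

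The plot of levels relative to the PBS mean shows that the genes shared this shape but not its height. In STZ replicate 2, Hsp90b1, Pdia6, Calr and Dnajc3 were above their PBS means. Hspa5, Manf, Pdia4, Creld2, Sdf2l1 and Xbp1 were below all PBS libraries that list them. The order of mean levels differed accordingly. In STZ it ran Calr (78.3 FPKM), Hsp90b1 (73.4), Hspa5 (40.6), Pdia6 (21.1), Dnajc3 (8.85), Pdia4 (8.07), Creld2 (7.82), Xbp1 (7.16), Manf (5.25) and Sdf2l1 (2.80). In PBS replicates 1 and 2 it ran Calr (99.99 FPKM), Hspa5 (80.4), Hsp90b1 (80.1), Pdia6 (24.2), Pdia4 (15.2), Creld2 (13.1), Manf (12.9), Xbp1 (10.5), Dnajc3 (10.3) and Sdf2l1 (6.90). In STZ only Hspa5 and Pdia6 were separated from both neighbours by ranges that did not overlap, and each neighbouring pair from Dnajc3 down to Sdf2l1 overlapped. In these PBS libraries, Hspa5 and Hsp90b1 overlapped, as did each neighbouring pair from Creld2 down to Dnajc3.

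Ratios between chaperone transcripts within a library do not depend on how the library was scaled, and the pairs were chosen after their values were seen, so they carry no test. The Hspa5 to Hsp90b1 ratio was 0.684, 0.449 and 0.611 in STZ replicates 1 to 3, against 1.17, 0.863 and 1.22 in PBS replicates 1 to 3. BiP transcripts thus outnumbered those of the ER's HSP90 per length in PBS replicates 1 and 3 and in no STZ library. The Pdia4 to Pdia6 ratio was 0.407, 0.310 and 0.501 in STZ, against 0.640, 0.618 and 0.637 in PBS. The Sdf2l1 to Sdf2 ratio was 0.0730, 0.263 and 0.122 in STZ, against 0.362, 0.427 and 0.591 in PBS. In each of these pairs the STZ and PBS libraries did not overlap, STZ replicate 2 included.

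**Figure D4:**
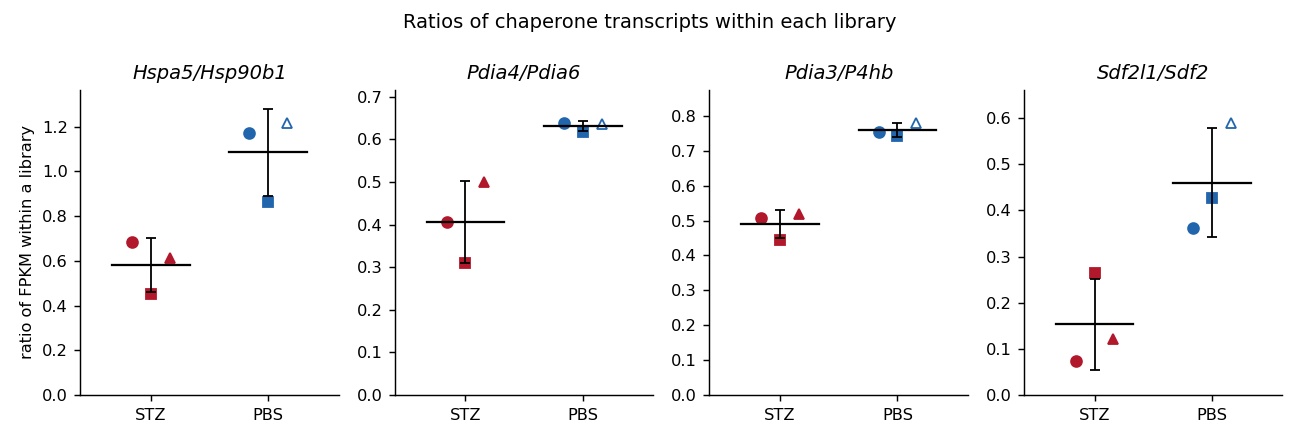
Ratio of FPKM within a library (vertical axes, from 0) for 4 pairs of ER folding genes in STZ (red, left) and PBS (blue, right); lines are means, bars are 1 SD, and the open triangle is PBS replicate 3. In all 4 panels every STZ library lies below every PBS library, as for Pdia3 to P4hb, between 0.443 and 0.518 in STZ and between 0.744 and 0.781 in PBS.

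Of the 9 nearest paralogs and cofactors in the plot of fold changes, 1 was called lower and none higher. Among all genes tested, 2.17% were called lower and 3.64% higher. Pdia3 (ERp57), the disulfide isomerase that partners calreticulin and calnexin, had 31.2, 33.2 and 30.7 FPKM in STZ, against 46.7, 48.0 and 45.2 FPKM in PBS. The libraries of each group lay close together, and Pdia3 fell by 0.56 on the log2 scale (limma adjusted p = 0.0447). Over 5 libraries the call was lost without any 1 of them (0.0580 to 0.288), after rescaling to TPM (0.0894) or without mitochondrial and haemoglobin genes (0.0526), and with no filter (0.0790). Over 6 libraries Pdia3 was past the threshold (limma adjusted p = 0.0060). It stayed past it there without any 1 of the 5 complete libraries (0.0087 to 0.0363), but not without replicate 1 of both groups (0.0668). P4hb, the classical disulfide isomerase, had 61.7, 75.0 and 59.3 FPKM in STZ, against 61.9, 64.5 and 57.9 FPKM in PBS, and its log2 fold change of 0.04 changed sign under some scalings.

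Hyou1, a large HSP70-related ER chaperone that exchanges nucleotide on BiP, had 1.66, 4.11 and 1.75 FPKM in STZ, against 5.27 and 5.13 FPKM in PBS replicates 1 and 2. The groups did not overlap, but with a log2 fold change of -0.89 the limma adjusted p was 0.122. The log2 fold changes were -0.32 for the lectin chaperone Canx, -0.36 for the BiP cochaperone Dnajb9, -0.34 for the Manf paralog Cdnf and -0.42 for the Creld2 paralog Creld1, with limma adjusted p from 0.0959 to 0.437. Dnajb11 at 0.06 and the Sdf2l1 paralog Sdf2 at 0.02 lay near 0 and changed sign under other scalings.

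The promoter sequences printed for 8 of the genes can be set beside these changes. Of the 6 with one, Hspa5 was called, Creld2 had groups that did not overlap but missed the threshold, and Hsp90b1, Pdia6, Dnajc3 and Calr overlapped between the groups, while Pdia4 was called with a mismatched copy. Of the 12 tested genes with an exact ERSE, 1 was lower and none was higher, with a median log2 fold change of -0.29. Of the 8145 tested genes with a promoter entry, 173 were lower and 289 higher, with a median of 0.05. The 6 chaperone genes among the 12 were chosen with earlier results known, and without them the median was 0.06. The 6 outside the 10 chaperones were Canx, the ER-associated degradation ligase Syvn1 and the ER mannosyltransferase Alg12, with log2 fold changes of -0.32, -0.60 and -0.34, and Pan2, Acacb and Hnrnpa3, with 0.43, 0.53 and 0.46. None of these 6 passed the threshold. The direction of Hnrnpa3 was not resolved, with a standard error of 1.13. It had 9.16, 8.62 and 0.16 FPKM in STZ, against 7.39 and 0.47 FPKM in PBS replicates 1 and 2. Among the 7 tested genes with an exact ERSE-II, which include the degradation factor Herpud1, none was called and the median was 0.41.

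Other genes of the secretory pathway were counted by lists. Of 40 tested ER folding factors outside the 10, 3 were lower and none was higher, with a median log2 fold change of -0.03. These were Pdia3, the thioredoxin-like membrane protein Tmx2 (20.3, 20.9 and 17.1 FPKM in STZ, against 38.3 and 37.1 FPKM in PBS replicates 1 and 2, limma adjusted p = 0.0221) and Kdelr3, a receptor that returns ER proteins from the Golgi (0.99, 1.24 and 1.3 FPKM in STZ, against 2.81, 3.18 and 2.12 FPKM in PBS, limma adjusted p = 0.0251). In both the STZ libraries were all below the PBS libraries. Beside the 2.17% of all genes called lower, this was a larger share, but the median of the list was near that of all genes.

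None of 24 tested genes of ER-associated degradation was called by limma in either direction (1 lower and 2 higher at an unadjusted p under 0.05, where all genes gave 10.2% and 16.4%), and their median log2 fold change was -0.05. Syvn1, its membrane ubiquitin ligase, had 3.38, 4.20 and 3.78 FPKM in STZ, against 5.91, 6.58 and 6.78 FPKM in PBS (limma adjusted p = 0.0524 over 5 libraries and 0.0075 over 6). Os9, a lectin that delivers substrates to it, had a log2 fold change of 0.55 (limma adjusted p = 0.0609). Herpud1, a stress-induced component named here after its values were seen, had 123.0, 66.7 and 84.8 FPKM in STZ, against 47.2 and 51.9 FPKM in PBS replicates 1 and 2. Its groups did not overlap and it stood in the opposite direction to Hspa5, with a log2 fold change of 0.83 (limma adjusted p = 0.106).

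Among 29 tested genes of translocation into the ER 1 was higher and none was lower, which is near the 3.64% and 2.17% of all genes tested. Spcs2, a signal peptidase subunit, had 7.82, 10.3 and 9.86 FPKM in STZ, against 3.86 and 4.63 FPKM in PBS (limma adjusted p = 0.0268), while its partner Spcs3 had a log2 fold change of -0.49 (limma adjusted p = 0.105). The median of the list was -0.05.

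The 12 tested sensors and proteases of the unfolded protein response held no gene called by limma (1 lower and 1 higher at an unadjusted p under 0.05, beside the same 10.2% and 16.4%). Ern1, which encodes IRE1, had 1.66, 1.80 and 1.58 FPKM in STZ, against 2.10, 1.62 and 1.72 FPKM in PBS, and Atf6 had 9.69, 11.54 and 6.92 FPKM in STZ, against 12.2, 11.4 and 12.0 FPKM in PBS. Both overlapped between the groups, as did Eif2ak3, which encodes PERK, with a log2 fold change of -0.01. Creb3l1, a membrane-bound transcription factor, had a log2 fold change of -0.72 (limma adjusted p = 0.0584 over 5 libraries and 0.0082 over 6), and its relative Creb3 had 0.41 (limma adjusted p = 0.132 and 0.0362).

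Genes of the PERK arm and targets of ATF4, the transcription factor it acts through, formed a list of their own. Of 23 tested, 4 were higher and none was lower, and their median log2 fold change was 0.37, beside 3.64% of all genes called higher. The 4 were Mthfd2 (1.19), Slc3a2 (0.94), Psat1 (0.92) and Phgdh (0.81), which serve one-carbon metabolism, amino acid transport and serine synthesis, with limma adjusted p from 0.0139 to 0.0408. Slc3a2 had 16.7, 17.2 and 16.6 FPKM in STZ, against 8.12, 8.45 and 8.86 FPKM in PBS, with no overlap. Atf4 itself, with a log2 fold change of 0.08, and Ddit3, which encodes the stress factor CHOP, with 0.46, did not pass (limma adjusted p = 0.757 and 0.292).

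Chaperones outside the ER were also counted. Of 39 tested cytosolic and mitochondrial heat shock genes 4 were lower and none was higher, and the median log2 fold change was -0.32, beside 2.17% lower and 3.64% higher of all genes tested. Hsph1, an HSP110 that exchanges nucleotide on cytosolic HSP70, had 1.76, 3.19 and 1.85 FPKM in STZ, against 9.17, 8.26 and 13.98 FPKM in PBS, a log2 fold change of -1.60 (limma adjusted p = 0.0169). The others were Fkbp4 (-0.86) and Stip1 (-0.72), cochaperones of HSP90, and the small heat shock protein Hspb3 (-0.78). STZ replicate 2 was the highest STZ library for 29 of these 39 genes.

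Collagens and other secreted matrix proteins are main clients of the ER in the heart. Of 26 tested secreted cargo genes 9 were lower and none was higher (2.17% and 3.64% of all genes tested), with a median log2 fold change of -0.55. They include Col3a1 (2.46, 1.70 and 1.94 FPKM in STZ, against 19.4, 17.3 and 14.7 FPKM in PBS) and Col1a1 (3.79, 3.32 and 3.03 FPKM in STZ, against 14.7, 11.2 and 11.2 FPKM in PBS). Log2 fold changes of the 26 ran from -2.68 to 1.66, 23 of them negative and 3 positive. At a limma unadjusted p under 0.05, 15 were lower and 3 higher, beside 10.2% and 16.4% of all genes. Over 6 libraries 12 of 21 cargo genes were called lower and 2 higher, beside 7.9% and 12.6% of all genes in that fit. STZ replicate 2 was the highest STZ library for 8 of these 26 genes. Of 15 tested genes of collagen folding and modification, 3 were lower (Serpinh1, P4ha1 and Plod1) and 2 were higher (P3h4 and Fkbp10), beside 2.17% and 3.64% of all genes. Serpinh1, the collagen chaperone HSP47 of the ER, had 18.3, 47.1 and 25.7 FPKM in STZ, against 93.5 and 94.6 FPKM in PBS replicates 1 and 2, a log2 fold change of -1.70 (limma adjusted p = 0.0491). Its STZ libraries showed the same order as those of Manf relative to PBS, with replicate 2 on top and all below PBS.

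**Figure D5:**
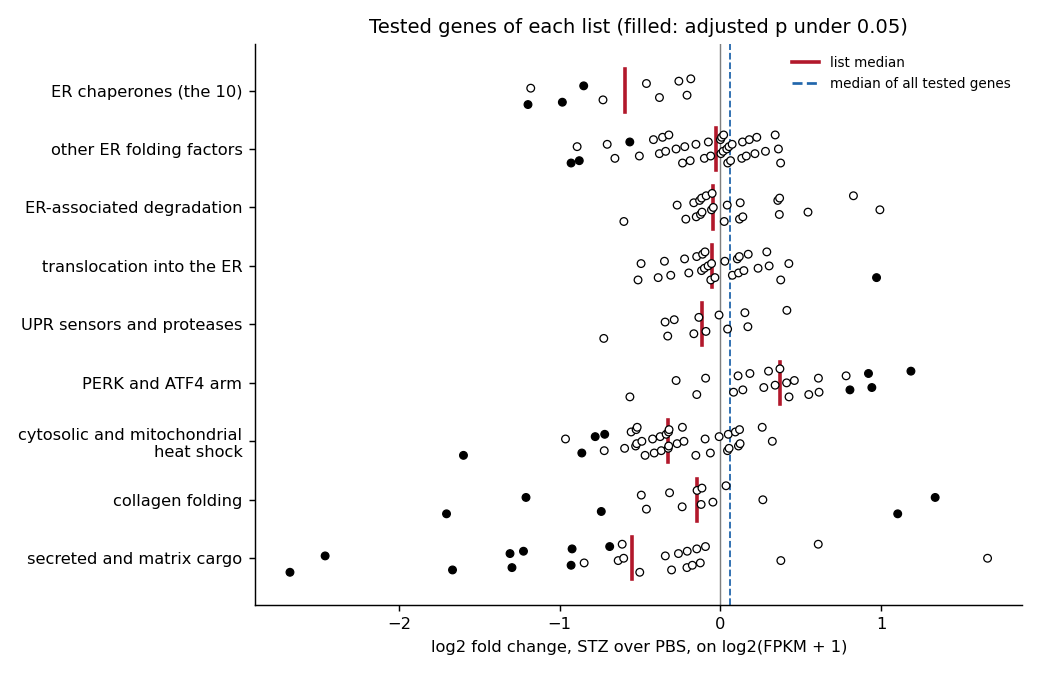
Log2 fold change of STZ over PBS on log2(FPKM + 1) (horizontal axis) of the tested genes of each list; filled points have a limma adjusted p under 0.05, red lines are list medians, and the dashed line is the median of all tested genes at 0.06. The 10 ER chaperones have a median of -0.59 and the secreted cargo genes of -0.55, the other ER folding factors lie around -0.03 and the genes of the PERK and ATF4 arm around 0.37.

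The plot of fold changes by list shows these counts side by side. The lists were compared by counts and medians, with no test between them. Of the 31 called genes named by rule outside the marker lists, 17 were past the threshold without STZ replicate 1, 24 without STZ replicate 2 and 22 without STZ replicate 3. Without PBS replicate 1 only Col3a1 was, and without PBS replicate 2 only Col3a1 and Col1a1, of the 29 that could then be tested. The 5 tested genes whose library profile was most like the mean profile of the 10 chaperones, by root mean square distance over the 5 complete libraries on the centred log2 scale, were Lrrc3b (0.0507), Kctd21 (0.0629), Tmem74b (0.0684), Ackr3 (0.0719) and Stk40 (0.0763). Lrrc3b had 4.85, 8.24 and 4.56 FPKM in STZ, against 8.63 and 10.97 FPKM in PBS replicates 1 and 2. STZ replicate 2 was its highest STZ library, a trait that choosing genes by this profile selects for. Kctd21 (0.51 to 1.51 FPKM in STZ) and Tmem74b (0.63 to 1.46 FPKM in STZ) lay near the filter of 1 FPKM, and their groups overlapped. None of the 5 passed the threshold, with limma adjusted p from 0.117 to 0.239.

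Cell type markers moved with the treatment in part. The tissue label was checked against 8 cardiomyocyte markers, which summed to 10611 to 12277 FPKM in STZ and to 13535 and 14332 FPKM in PBS, none of them at 0 and 1 of them, Actc1, lower. Atrial markers summed to 974 to 3336 FPKM in STZ and to 315 and 1353 FPKM in PBS. Most of that sum was Nppa, named like Cfd after its values were seen, with a log2 fold change of 1.66, whereas the other 5 of the 6 tested had negative ones, the list median was -0.79, and limma called none (none lower and 1 higher at an unadjusted p under 0.05). The 10 fibroblast markers summed to 412 to 465 FPKM in STZ and to 433 and 463 FPKM in PBS, with 5 of them lower, 3 of these collagens. The list was mixed: 6 had negative and 4 had positive fold changes, with 2 higher at a limma unadjusted p under 0.05. Over 6 libraries 5 of 8 fibroblast markers were called lower and 1 higher. Endothelial markers summed to 142 to 187 FPKM in STZ and to 140 and 143 FPKM in PBS, smooth muscle and pericyte markers to 164 to 211 FPKM in STZ and to 199 and 215 FPKM in PBS, with Acta2 lower, and macrophage markers to 139 to 200 FPKM in STZ and to 181 and 208 FPKM in PBS. Of the 7 smooth muscle and pericyte markers tested, 4 had negative and 3 had positive fold changes. Over 6 libraries 1 of 3 was called higher and none lower. No endothelial or macrophage marker was called over 5 libraries. Over 6 libraries, 2 of 3 endothelial markers were called higher and none lower. Of 5 macrophage markers in that fit, 1 was called lower and none higher, beside 7.9% lower and 12.6% higher of all its genes. Neutrophil markers summed to 42.7 to 59.6 FPKM in STZ and to 3.66 and 8.22 FPKM in PBS, with S100a8, S100a9 and Retnlg higher. Only these 3 of the 8 neutrophil markers were tested, and the other 5 were below 1.5 FPKM in every complete library. Adipocyte markers summed to 40.6 to 48.5 FPKM in STZ and to 17.7 and 24.7 FPKM in PBS, of which Cidea, called higher, made up nearly all. The only other adipocyte marker tested, Cfd, had a log2 fold change of -1.10 (limma adjusted p = 0.108), the remaining 6 of the 8 were below 1.5 FPKM, and Lep and Ucp1 were at 0 in all 5 complete libraries. The part of these shifts in the chaperone levels was not tested. Markers of plasma and B cells, which are rich in ER chaperones, summed to 1.56 to 2.90 FPKM in STZ and to 1.58 and 2.42 FPKM in PBS, with all 8 below 1.5 FPKM in every complete library and Tnfrsf17 at 0. The 6 mesothelial markers summed to 0.89 to 3.79 FPKM in STZ and to 1.00 and 1.54 FPKM in PBS.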

How the data were processed

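Total RNA of myocardium was poly(A)-selected and sequenced, with second strands marked by dUTP, per the labels' protocols. Per the submitters' processing notes, cutadapt 1.9, HISAT2 2.0.4 and StringTie 1.3.4d were used with GRCm38; the sources used here do not give the strand setting or annotation release. The deposited values are FPKM per Ensembl gene, per the file headers.

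Ensembl IDs were matched to symbols and positions of GENCODE M21 (GRCm38), which gave 55141 of 55401 IDs a symbol. log2(FPKM + 1) was fitted with limma 3.58.1 (R 4.3.3, eBayes with trend, two-sided, Benjamini-Hochberg over 11556 genes, threshold 0.05), so fold changes understate those of low genes. The script was tested on simulated data. Where PBS replicate 3 is included, its genes are those its file lists. No label says that libraries of a group are separate animals, so a p-value covers the spread between libraries only, and that spread may be technical.

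The 10 genes and all lists were chosen with earlier results of these data known. Named genes were the 10, the stated paralogs and cofactors, up to 6 called genes of each list by smallest p (or the 2 with the smallest p where fewer than 2 passed), called markers, and the 5 nearest profiles. Genes outside this rule are said to be named after their values were seen, or are named as the sensors, Atf4 and Ddit3 of the pathway or as holders of a promoter motif. Alternatives were pseudocount, filter, scaling, eBayes settings, a replicate block, the third PBS library and leaving out each library.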

Additional observations from a re-analysis of the deposited data

How the results depend on the processing

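Over 5 libraries 3 of the 10 chaperone genes were called lower. The count was 0 with no filter, 0 after rescaling to TPM, where limma adjusted p was 0.0579 for Hspa5, 0.0621 for Manf and 0.0725 for Pdia4, and 1 after rescaling without mitochondrial and haemoglobin genes. It was 2 with a pseudocount of 0.1 and 2 with eBayes without trend. In both, Pdia4 missed the threshold (limma adjusted p = 0.0517 and 0.0502). Leaving out 1 library gave 0 to 5 of 10. The 6-library alternatives that leave out libraries were chosen after seeing the data; they gave 2 to 7 of 9, and 1 without replicate 1 of both groups. Over all genes 672 were called, 81 with no filter, 1169 with the third PBS library added and 24 to 398 without 1 library. Of 6 libraries, leaving out PBS replicate 1 gave 388, PBS replicate 2 437, an STZ library 865 to 880, and replicate 1 of both groups 259.

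The replicate block gave 0 of the 10 chaperone genes and 64 of all genes over 5 libraries, and 4 of 9 chaperone genes over 6. Over 5 libraries STZ replicate 3 had no PBS library in its block. The fold changes of that block were therefore those of the fit without STZ replicate 3. The labels give no pairing, same-numbered libraries deviated from their group means with correlations of 0.18, -0.05 and 0.15, and the numbers were not taken to pair the libraries. The replicate 1 libraries correlated best with each other, as did the replicate 3 libraries, and the replicate 2 libraries did not. Pairs with unlike numbers ran from -0.23 to 0.09. These values do not decide whether the numbers pair the libraries.

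The log2 fold change of Hsp90b1 reversed to 0.0074 in the block of 5 libraries, the same value as without STZ replicate 3. It ran from -0.48 to 0.0074 with 1 of 5 libraries left out, and was 0.0032 without STZ replicate 3 of 6. P4hb reversed to -0.029 by centring and -0.028 by quantile normalization, ran from -0.062 to 0.105 with 1 of 5 libraries left out, and was -0.021 without STZ replicate 2 of 6. Dnajb11 reversed to -0.0055 by centring and ran from -0.10 to 0.16 with 1 of 5 or, without STZ replicate 2, of 6 libraries left out. Sdf2 reversed to -0.052 by centring, -0.033 by quantile normalization and -0.0064 without mitochondrial and haemoglobin genes, ran from -0.056 to 0.091 with 1 of 5 libraries left out, and was -0.015 without STZ replicate 2 of 6. The cause was not tested. Over the 56 named genes, 981 alternative values kept direction and side of the threshold, 165 lost and 39 gained a call, and 17 reversed.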

Other observations

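Clock and cold-response genes had the highest median of the lists counted other than those of cell type markers. Of 19 tested, 4 were higher and 1 was lower in STZ, beside 3.64% higher and 2.17% lower of all genes tested, with a median log2 fold change of 0.78. The repressor Per2 had 6.65, 5.62 and 10.6 FPKM in STZ, against 0.71 and 0.75 FPKM in PBS replicates 1 and 2, and the activator Arntl had 0.36, 0.93 and 0.36 FPKM in STZ, against 3.39 and 2.51 FPKM in PBS. The RNA-binding proteins Cirbp and Rbm3, known to rise in the cold, had log2 fold changes of 1.97 and 1.40, and the transcription factor Hlf had 1.20 (limma adjusted p from 0.00806 to 0.0256 for these 5 genes). The groups did not overlap for any of them.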
